A study of Mus musculus with 13 samples.

Results

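The genes described here are 9 effectors and regulators of the type I interferon response in mouse liver: Irf7, Ifit1, Ifit2, Ifit3, Isg15, Rsad2, Usp18, Zbp1 and Ifi44. They were found by their symbols in the liver table deposited by the authors, where all 9 of them occur among 11779 listed genes. The genes were chosen by name with the authors' fold changes between the liver groups known, so a difference between the groups would be no independent finding for them. Those fold changes and their p-values belong to the authors' own comparison and were not used. What is described is the level of each gene in these livers, the company it keeps in the pathway, and the sequence of its promoter and transcripts.

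The livers came from Balb/c mice collected on day 5 after an injection. In the group Liver LL35 ASO, 3 mice had received a mix of 5 GalNAc-conjugated antisense oligonucleotides (ASOs) against LL35, a long non-coding RNA of hepatocytes. The number 5 is that of the labels, whereas the list of oligonucleotide sequences for the mice has 4 such conjugates. The stated dose was 150 mg/kg, which the labels give for each ASO and the methods of the study for the total. In the group Liver Luc ASO, 3 mice had received a GalNAc-conjugated ASO against firefly luciferase, a gene that mice lack. GalNAc is a sugar that hepatocytes take up, so both groups carried a conjugated oligonucleotide and neither stands for untreated liver. The study also sequenced 7 libraries of AML12 cells, a mouse hepatocyte line, which were not analysed here.

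Type I interferons are secreted proteins that warn neighbouring cells of viral nucleic acid. They bind the receptor pair IFNAR1 and IFNAR2, the kinases JAK1 and TYK2 then phosphorylate transcription factors such as STAT2, which joins IRF9 in a complex that binds interferon-stimulated response elements in promoters. The genes switched on in this way hold back viral replication, and some feed back on the pathway itself. In the liver, hepatocytes, Kupffer cells and endothelial cells can all respond to interferon.

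The promoter elements through which this complex acts are repeats of GAAA set 2 bases apart. The members were not picked by these letters, but they were picked as genes of the response that works through such elements. A high share of matches among them is therefore no independent finding. RefSeq promoter windows of build GRCm38.p6, from 250 bases before to 50 bases after each annotated start, were found for 7 of the 9 genes, Ifit2 with a window for each of its 2 starts. Irf7 and Ifi44 have 1 window each, as have Ifit1, Ifit3, Isg15 and Rsad2. Usp18 and Zbp1 were not matched. GAAA, any 2 bases and GAAA, searched on both strands, occurred in the windows of 4 of the 7 genes, which was 57.1%. Among all 27025 genes with a window, 3.99% had such a match, and among the 9335 of these genes with a level in the liver table, 3.73% had one. A match is a description of the letters in the window, not a test that a factor binds there. The reference is the C57BL/6J genome, whereas the mice were Balb/c. The stretches that hold the matches are printed 5′ to 3′ on the strand of the gene, with 20 bases on either side and the matched bases in capitals.
Isg15, chr4:156200855-156200916, minus strand: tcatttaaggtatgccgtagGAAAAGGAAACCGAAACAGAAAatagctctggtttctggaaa
Ifit1, chr19:34640765-34640833, plus strand: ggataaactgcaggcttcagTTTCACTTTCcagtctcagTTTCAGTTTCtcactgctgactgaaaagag
Ifit3, chr19:34583353-34583436, plus strand: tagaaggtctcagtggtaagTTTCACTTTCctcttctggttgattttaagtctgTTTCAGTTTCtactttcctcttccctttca
Rsad2, chr12:26456543-26456592, minus strand: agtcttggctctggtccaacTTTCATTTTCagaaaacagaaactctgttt

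Isg15 had the densest array, with 3 overlapping matches from position -78 to position -57, counted in bases from the annotated start. It was the only member with GAAA at least 3 times at this spacing, and the run of 3 occurred at 2 overlapping places. Such a run was held by 0.133% of all genes with a window. Ifit1 and Ifit3 each had 2 matches, and on the opposite strand both genes read GAAAGTGAAA at the first and GAAACTGAAA at the second. In Ifit1 they lay at -104 to -95 and at -85 to -76, and in Ifit3 at -156 to -147 and at -122 to -113. The same pair of elements in the same order thus stands in both promoters, with a wider gap in Ifit3. Rsad2 had 1 match, which reads GAAAATGAAA on the opposite strand, at -120 to -111. With C required after the first GAAA, 3 members had a match (Ifit1, Ifit3 and Isg15), against 0.792% of all genes with a window.

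The windows of Irf7, Ifi44 and Ifit2 held no such match, which says only that these letters are not in those 300 bases. A shorter pattern, AANNGAAA, the core to which interferon regulatory factors bind, occurred 3 times in the window of Ifi44, and in 5 of the 7 members against 26.7% of all genes with a window. Every match of the longer pattern contains this core. TTCNNNGAA, the gamma-activated site, occurred in 1 member, at -241 to -233 of the first Ifit2 window, and in 9.55% of all genes with a window. Among the other interferon-stimulated genes with a level and a window, 14 of 27 held the GAAA repeat (51.9%), and none of the 7 receptor and kinase genes did.

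**Figure D1:**
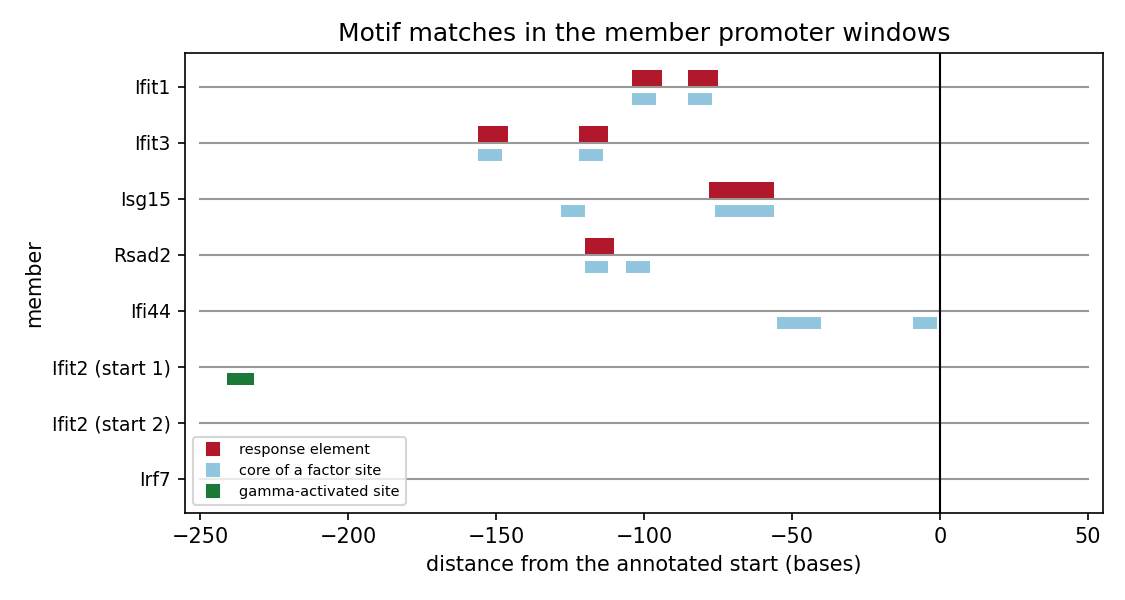
Motif matches in the promoter windows of 7 members, by distance from the annotated start in bases. Red boxes are GAAA repeats (response elements), pale blue boxes the shorter core and the green box the gamma-activated site; the red boxes lie between -156 and -57 in 4 genes, and Irf7 has no box.

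The liver table gives 1 value for the level of each gene, the authors' mean normalized count over the compared libraries, which the labels tie to the 6 liver samples. It pools both groups and holds no value for a single mouse, so no level below has a standard deviation or an n, and the depth behind it is unknown. Whether neighbours in the order of levels differ beyond the spread between mice could therefore not be tested. Among all listed genes the level ran from 15.6 to 1217472, with a median of 235. Genes that are not listed were not analysed here, and the lack of levels under 15.6 means that the listed genes are not a sample of all genes.

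The members were mostly genes of low level. On the scale of the mean normalized count, 8 of the 9 lay below the median listed gene and 7 lay below percentile 25. Together they summed to 761, which was 0.00674% of the sum over all listed genes. Of the 9, 6 had a level of at least 50 and 3 a level under 50, compared with 15.8% of all listed genes under 50. Their median level was 61.3.

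Irf7 encodes the transcription factor that drives the interferon alpha genes and amplifies the response. Its mean normalized count was 275, at rank 5382 and percentile 54.3. It was the only member above the median listed gene, and its level made up 36.2% of the sum over the 9 members. The next member, Usp18, had a mean normalized count of 115 at percentile 32.2, so Irf7 stood 2.39 times above it. USP18 removes ISG15 from proteins and also binds IFNAR2, where it damps the signal.

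The other 7 members lay close together, within 1.99 times of the lowest. Ifit2 had a mean normalized count of 69.6 and percentile 21.6. Rsad2, which encodes viperin, a radical SAM enzyme that makes a chain-terminating nucleotide, had 65.9 at percentile 20.6. Ifi44, another interferon-induced gene, had 61.3 at percentile 19.2. These 3 genes thus lay at nearly the same level. Ifit1, whose product binds RNA that lacks the methylation of host caps, had a mean normalized count of 57.1 at percentile 18.0. Zbp1, a sensor of nucleic acid in the Z form that can start necroptosis, had 41.9 at percentile 13.1. Ifit3, another gene of the Ifit family, had 39.5 at percentile 12.2. The lowest mean normalized count was that of Isg15, which encodes a ubiquitin-like modifier, with 35.1 at percentile 10.3.

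**Figure D2:**
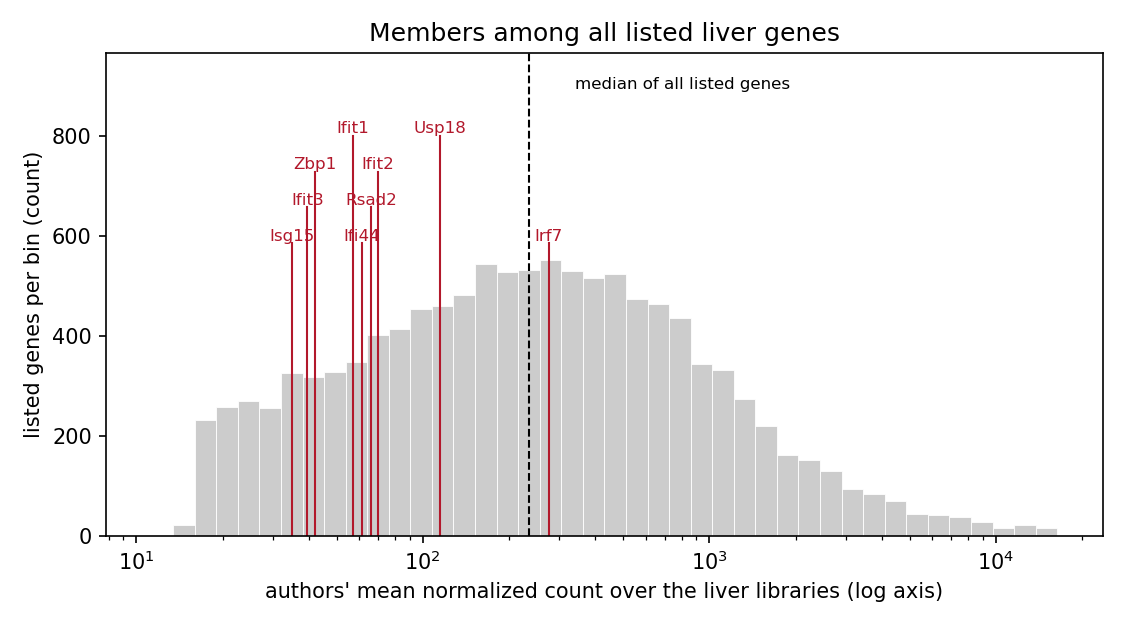
Distribution of the authors' mean normalized count over the listed liver genes (grey bars, listed genes per bin, log axis), with the 9 members as red lines and the median listed gene as a dashed line. Irf7, at 275, is right of the median of 235 and the other 8 members are left of it; 63 genes with a level of 16384 or more lie beyond the axis.

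A longer transcript yields more reads at the same number of molecules, so levels of different genes were compared per kilobase. The order of the members changed when this was done. Per kilobase of coding sequence, Irf7 (201), Usp18 (104) and Isg15 (72.6) were the highest. Isg15, the last by mean normalized count, rose to the place 3 per kilobase, since its coding sequence is the shortest of the 9, at 483 bases. It also stood in the place 3 per kilobase of its longest transcript, with 46.4. Rsad2 followed with 60.7 per kilobase of coding sequence, then Ifit2 with 49.4, Ifi44 with 48.5, Ifit1 with 41.1, Zbp1 with 34.0 and Ifit3 with 32.7. The highest and the lowest differed 6.15 times.

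The order of the lower 6 members depended on the length used. Rsad2 and Ifi44 have long transcripts of 4189 and 4064 bases, and per kilobase of the longest transcript their levels were 15.7 and 15.1. They then stood in the places 7 and 8, whereas Ifit3, with a transcript of 1745 bases, moved from the place 9 to the place 4 with 22.6. Irf7, Usp18 and Isg15 kept the first 3 places under both lengths. Irf7 was the only member above the median listed gene under both lengths, which was 168 per kilobase of coding sequence and 71.1 per kilobase of the longest transcript.

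**Figure D3:**
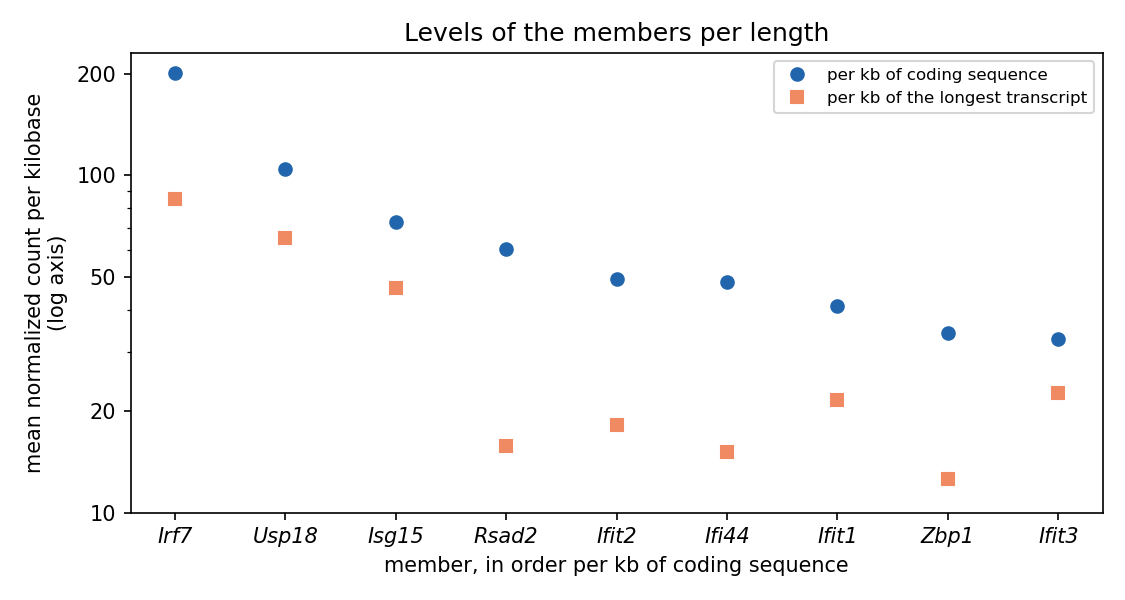
Mean normalized count per kilobase (log axis) of the 9 members, divided by the longest coding sequence (blue circles) or by the longest transcript (orange squares). Irf7, Usp18 and Isg15 are the highest on both scales, and the squares of Rsad2 (15.7) and Ifi44 (15.1) fall below that of Ifit3 (22.6).

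The Ifit genes are neighbours, and their sequences bear on what their counts can show. In the RefSeq gene table, the protein-coding genes run in the order Lipa, Ifit2, Ifit3, Ifit1bl1, Ifit3b, Ifit1bl2, Ifit1 and Slc16a12. Of the 6 Ifit genes in this row, Ifit1, Ifit2, Ifit3 and Ifit3b are listed, and the flanking genes Lipa and Slc16a12 had mean normalized counts of 2393 and 1581. The coding sequences of Ifit1 and Ifit2 were identical at 56.5% of aligned bases, those of Ifit1 and Ifit3 at 59.2%, and those of Ifit2 and Ifit3 at 61.4%. Ifit3 and Ifit3b were identical at 99.1%, with 1198 of 1209 bases the same.

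This near copy limits the value of Ifit3. Of all stretches of 50 bases in the Ifit3 transcripts, 51.2% also occur in Ifit3b. A read that lies within a shared stretch cannot be assigned to either gene. The length of 50 bases was set here, since the sources used do not settle the read length. Longer reads would be shared less often, so the values per stretch below hold for this length. The count of the STAR aligner takes reads with a single place in the genome. The level of Ifit3 (39.5) and that of Ifit3b (19.2) thus rest on reads that reach outside the shared sequence. Divided by 1000 of the 827 stretches that no other gene holds, Ifit3 reached 47.8, compared with 23.6 for Ifit1 and 18.0 for Ifit2. Divided by all stretches, Ifit3 had 23.3, Ifit1 21.9 and Ifit2 18.0. The order among these 3 genes was thus the same on both scales, but the lead of Ifit3 was not. Among all 9 members, Irf7 (62.5) and Isg15 (51.6) had more per 1000 stretches held by no other gene, whereas Usp18 (43.2) had less. Ifit3 thus stood in the place 3 on this scale, compared with the place 9 per kilobase of coding sequence. Ifit1 shared 7.13% of its stretches with Ifit1bl1 and Ifit1bl2.

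The other members shared little or nothing. Isg15 shared 3.96% of its stretches with AC151275.1, and Usp18 shared 2.81% with Gm44148, a gene on the opposite strand that overlaps 4.44% of its exonic bases. Irf7 overlapped Phrf1 on the opposite strand by 1.19% of its exonic bases and shared no stretch. Ifit2, Rsad2, Zbp1 and Ifi44 shared no stretch and overlapped no exon of another gene. The library kit keeps strand, but which strand setting was used for counting is not given in the sources used here.

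Per kilobase of coding sequence, the receptor and kinase genes upstream of the members had a higher median level. Tyk2, Jak2 and Ifngr1 lay below Irf7 on this scale, and Tyk2 and Jak2 also below Usp18. These places depended on the length used. Per kilobase of the longest transcript, Tyk2 (67.4) lay above Usp18 (65.0), Ifngr1 (132) above Irf7 (85.0), and Ifngr2 (72.2) below Irf7. Jak2 (54.7) stayed below Irf7 and Usp18. None of the 10 ligand genes on the list, among them Ifnb1, Ifng and 4 interferon alpha genes, is listed. All 7 receptor and kinase genes on the list are listed, with a median of 269 per kilobase of coding sequence against 49.4 for the members. The list joins genes of both interferon types. Of the genes that carry the type I signal, Ifnar1 had 326, Ifnar2 had 293, the kinase gene Jak1 had 635 and Tyk2 had 89.9 per kilobase of coding sequence. Ifngr1 and Ifngr2 encode the chains of the receptor for interferon gamma, the type II interferon, and had 195 and 269. Jak2, a kinase gene of that receptor, had 81.0 per kilobase of coding sequence, the lowest of the list, and still lay above 7 of the 9 members.

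The 7 transcription factor genes reported here are all listed, with a median of 317 per kilobase of coding sequence. Stat2 had 334 and Irf9 had 303 per kilobase of coding sequence. Irf7, at 201, lay below both on this scale. On this scale the highest of the 7 was Irf2, a factor that can hold back interferon-stimulated genes, with 896. Irf1, which can activate such genes, had 317. Irf3, the factor that starts interferon transcription together with Irf7, had 404. Irf5 and Irf8, factors of macrophages and dendritic cells, had 54.4 and 106. The first place of Irf2 depended on the length used. Per kilobase of the longest transcript, Irf3 had 250 and Irf2 had 237. Of the brakes on the pathway, Socs3 had 168, Ptpn2 163, Ptpn6 106 and Pias1 196 per kilobase of coding sequence, and Socs1 is not listed.

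ISG15 is joined to proteins by an enzyme chain and removed by USP18, and all 6 genes of this cycle are listed. The conjugating enzyme gene Ube2l6 had 887 and the ligase gene Trim25 had 720 per kilobase of coding sequence. The activating enzyme gene Uba7 had 48.5 and the main mouse ligase gene Herc6 had 63.7, compared with 72.6 for Isg15 itself and 104 for Usp18. The genes of the modifier and its remover thus lay between these and the genes Ube2l6 and Trim25.

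Around Zbp1, the partners in cell death ranged widely. Ripk3, the kinase through which ZBP1 starts necroptosis, had a mean normalized count of 17.9, near the lowest level listed, and 12.3 per kilobase of coding sequence. Mlkl, which forms the pores of necroptosis, had 40.3 per kilobase of coding sequence, next to the 34.0 of Zbp1. Ripk1 and Casp8 had 235 and 234, and Adar, an editing enzyme that limits the RNA ZBP1 can sense, had 118. These likenesses depended on the length used. Per kilobase of the longest transcript, Mlkl had 28.5 and Zbp1 12.6, and Ripk1 had 71.5 and Casp8 136. Among the relatives of the members, Cmpk2, the kinase gene that works with Rsad2, had 25.9 and Ifit3b 15.9 per kilobase of coding sequence. Both lay below every member on this scale. For Ifit3b the limit given for Ifit3 holds too, since reads that fit both genes are not counted. Ifi44l, Usp41, Ifit1bl1 and Ifit1bl2 are not listed.

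Of 40 other interferon-stimulated genes on the list, 36 are listed, with a median of 116 per kilobase of coding sequence. Of these, 10 lay below the median member on this scale. By mean normalized count the 36 genes ran from 17.5 for Oas1g, a gene of the oligoadenylate synthetase family, to 1208 for Dtx3l, a ubiquitin ligase gene. Per kilobase of coding sequence, Oas1g was again the lowest, with 15.9, but the highest was Ifitm3, with 2701. The median of the members, 49.4 per kilobase of coding sequence, was below that of these genes, whereas Irf7, at 201, was above it. No test of this difference was made, since the members were picked with results of these data known and each gene has a single pooled value.

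**Figure D4:**
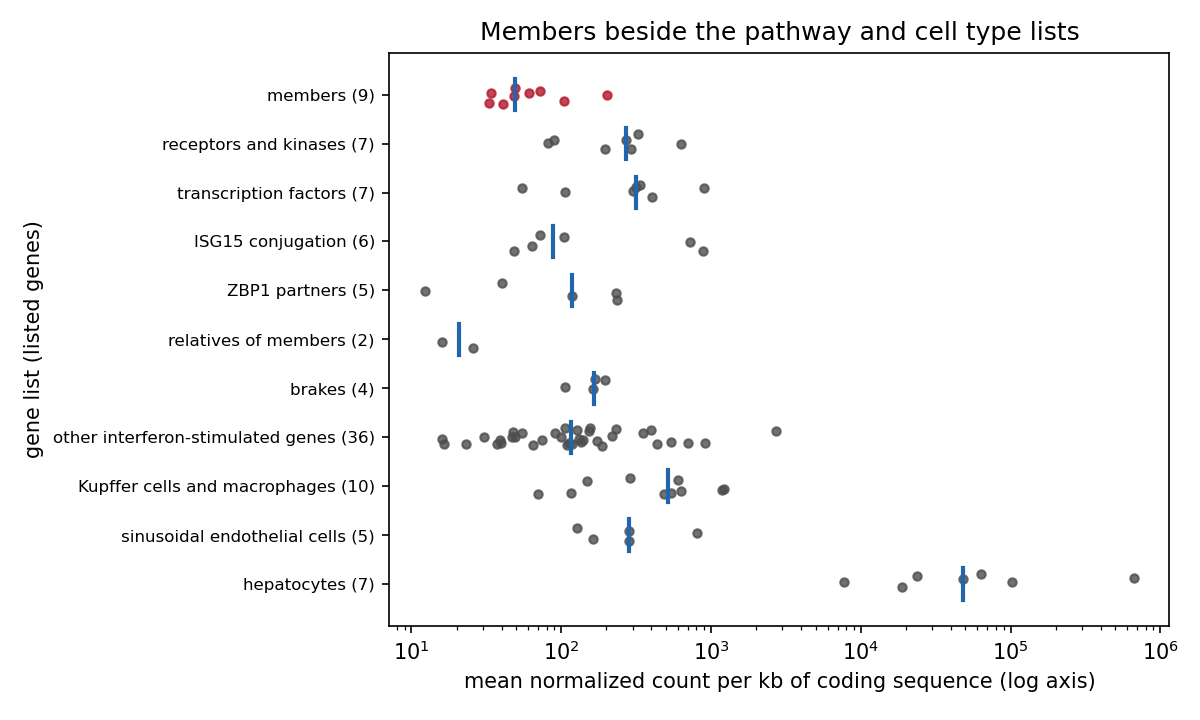
Mean normalized count per kilobase of coding sequence (log axis) of the 9 members (red), with the median of each list as a blue bar. Grey points are the listed genes of the pathway lists and of the Kupffer cell and macrophage, sinusoidal endothelial and hepatocyte lists. Isg15 and Usp18 stand again in grey under ISG15 conjugation. The median of the members is 49.4, that of the receptors and kinases 269 and that of the other interferon-stimulated genes 116.

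In whole liver, fewer cells of a type and less RNA per cell cannot be told apart, and the levels of the members say nothing of which cells held them. The tissue had the markers its label implies, with all 7 hepatocyte markers listed and a highest mean normalized count of 1217472, for Alb. All 10 Kupffer cell and macrophage markers were listed, with a summed mean normalized count of 6358. All 5 markers of sinusoidal endothelial cells and all 5 of stellate cells were listed too. Of the lymphocyte markers, only Cd3e was listed among 5 for T and NK cells, at 18.6, and none of 4 for B cells. Siglech and Ccr9, which mark plasmacytoid dendritic cells, the main source of interferon alpha, are not listed, whereas Bst2 and Tcf4, which other cells also express, had 473 and 380. Of 4 cholangiocyte markers, only Sox9 was listed, at 41.1, and 3 of 4 neutrophil and 3 of 4 erythroid markers were listed, with summed mean normalized counts of 87.7 and 435. The part of any cell type in the levels of the members was not tested.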

How the data were processed

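RNA of mouse liver was sequenced by the authors from rRNA-depleted stranded libraries. Per the labels and the methods of the study, reads were aligned to the mouse genome with STAR 2.5.3a, counted per gene on an Ensembl annotation, and normalized by the authors with the RLE method of DESeq2. The genome build and Ensembl release are not given in the sources used here, so no gene positions from the table are given. The deposited signal used here is the mean normalized count per gene over the 6 liver libraries. The table also holds the authors' own comparison of the groups in 5 columns (fold change, its standard error, test statistic, p-value and adjusted p-value), which were not used, and it has no column for a single library. Depth is unknown.

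Levels were ranked over 11779 genes. Lengths came from GENCODE release M21 through Ensembl identifiers, with an exon length for 11754 genes and a coding length for 11384. Promoter windows came from RefSeq (GRCm38.p6), matched by symbol. Coding sequences were aligned globally in Biopython 1.88 (match 1, mismatch -1, gap opening -5, gap extension -0.5). Shared stretches of 50 bases were sought on both strands of all GENCODE M21 transcripts. The motif search was tested on elements planted in windows made of C only. The alignment was tested on simulated sequences of equal length that differed by substitutions. Alignments with gaps, the shared stretches and the genomic positions were not tested in this way. The versions used were pandas 2.3.3, scipy 1.17.1, matplotlib 3.10.9 and numpy 2.4.6 under Python 3.11.15. The 9 genes and the lists were chosen with earlier results of these data known. Named were all members, the listed receptors, kinases, transcription factors, partners and relatives, the Ifit neighbours, the brakes, the highest and lowest gene of the long list of interferon-stimulated genes, and for cell type lists the count listed; Alb, Cd3e, Sox9, Siglech, Ccr9, Bst2 and Tcf4 were named beside these counts. One transcription factor gene of the lists is not reported here. No test between groups was made. The alternatives changed the length, the background of the percentiles, the match of names, the motif and the window.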

Additional observations from a re-analysis of the deposited data

How the results depend on the processing

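The order of the members per kilobase of coding sequence depended on the length. Of the 9 members, 3 kept their place with the longest transcript, 3 with no division by length, 2 with all exonic bases and 2 with the stretches that no other gene holds, the last 2 settings chosen after seeing the data, and over these 4 settings 26 of 36 places moved. Irf7 was first in all of them. The median percentile of the members, 19.2 among all listed genes, was 18.1 among those with a coding length. Among genes with a level of at least 50 it was 6.33, over the 6 members that pass this minimum. Matching by older symbols and identifiers found the same number of members, 9. Of 7 members with a window, 4 had the GAAA repeat, also when only bases before the start were searched, 3 with C required after the first GAAA, and 1 with GAAA 3 times. The AANNGAAA core (5 members) and the gamma-activated site (1 member) were chosen after seeing the data, as were the coding sequence identities and the shared stretches. With the shorter sequence as the denominator, 3 of 15 identities left their 95% Wilson interval. That interval treats the aligned bases of a fixed pair of sequences as independent draws, so it served only as a yardstick and measures no spread. The planned identity between the Ifit proteins and the planned coding lengths from a protein table were not run, since no protein sequences were used here, and coding lengths from GENCODE M21 took their place. No paired analysis was possible because the table holds no values for single mice, and for the same reason no library could be left out.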
